A study of Mus musculus with 15 samples.

Results

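Genes of mitosis and the spindle were followed in mouse T-ALL cells through the first 24 h after the MYC transgene was turned off. The 48 genes were taken by name for what their proteins do in mitosis, as the rows of the count tables whose gene identifiers carry these mouse symbols, by a rule that uses no measured value. The list was, however, chosen with earlier results of these data known. They are 48 of 53380 features, all 48 were found, and all 48 were among the 14485 genes that passed a filter on low counts. T-ALL is T cell acute lymphoblastic leukemia, and the cells were grown from tumors of EμSRα-tTA/tet-O-MYC mice, in which the tTA activator, driven by EμSRα in lymphoid cells, keeps a human MYC transgene on unless doxycycline is present. All cells, those at 0 h included, carry both transgenes. At 0 h MYC is on and treatment was mock, and at 2, 4, 8 and 24 h it is off after doxycycline for that time. Each of the 5 times has 3 libraries of polyA RNA, 15 in all. Neither the labels nor the text used here say how many tumors or clones lie behind the cells, or whether the 3 libraries of a time came from separate cultures, so p-values rest on the differences among these libraries, and those may be technical.

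Cells enter mitosis when cyclin B and the kinase Cdk1 become active. Polo-like and Aurora kinases then build the spindle, and kinesin motors move the chromosomes on it. Kinetochores tie chromosomes to the spindle, a checkpoint holds the cell until all are attached, and the anaphase-promoting complex (APC/C) then destroys the cyclins so that the cell can divide. Most of these genes are transcribed late in the cell cycle, from promoters in which a CHR element and CCAAT boxes, bound by MuvB complexes and NF-Y, are known to set the timing, and in leukemia cells their RNA is widely used as a sign of proliferation.

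Promoters are shown for 6 genes on which the results below turn, 5 that rose after MYC was turned off and Ube2c, the only member called lower at 24 h against 0 h. Each window runs from 250 bases before to 50 bases after the gene's start, as RefSeq gives it on build GRCm38.p6, and is written 5′ to 3′ on the gene's own strand, with every CHR (TTTGAA) and CCAAT box (CCAAT), or their reverse complements TTCAAA and ATTGG, in capitals. The windows are chr7:135716330-135716629 for Mki67, chr9:70421505-70421804 for Ccnb2, chr11:99024140-99024439 for Top2a, chr10:69352863-69353162 for Cdk1 and chr1:189688037-189688336 for Cenpf, all on the minus strand, and chr2:164769679-164769978 on the plus strand for Ube2c.
Mki67: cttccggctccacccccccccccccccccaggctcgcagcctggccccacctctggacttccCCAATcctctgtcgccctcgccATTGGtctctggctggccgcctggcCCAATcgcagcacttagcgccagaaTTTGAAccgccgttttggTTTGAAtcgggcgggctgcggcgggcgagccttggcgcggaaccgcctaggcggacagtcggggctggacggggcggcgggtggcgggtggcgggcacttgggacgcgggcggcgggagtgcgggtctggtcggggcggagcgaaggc
Ccnb2: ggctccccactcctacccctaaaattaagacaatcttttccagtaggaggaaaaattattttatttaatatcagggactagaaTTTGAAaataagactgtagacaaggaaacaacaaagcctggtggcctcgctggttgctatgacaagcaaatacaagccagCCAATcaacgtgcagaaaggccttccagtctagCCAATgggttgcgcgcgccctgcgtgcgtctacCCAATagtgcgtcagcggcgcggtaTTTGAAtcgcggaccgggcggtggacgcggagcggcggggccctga
Top2a: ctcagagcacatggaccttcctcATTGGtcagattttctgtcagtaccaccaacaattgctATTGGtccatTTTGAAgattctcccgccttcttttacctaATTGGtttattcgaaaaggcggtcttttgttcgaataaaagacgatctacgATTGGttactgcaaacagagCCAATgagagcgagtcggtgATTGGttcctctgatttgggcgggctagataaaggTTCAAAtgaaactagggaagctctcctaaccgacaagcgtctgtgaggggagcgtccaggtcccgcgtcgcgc
Cdk1: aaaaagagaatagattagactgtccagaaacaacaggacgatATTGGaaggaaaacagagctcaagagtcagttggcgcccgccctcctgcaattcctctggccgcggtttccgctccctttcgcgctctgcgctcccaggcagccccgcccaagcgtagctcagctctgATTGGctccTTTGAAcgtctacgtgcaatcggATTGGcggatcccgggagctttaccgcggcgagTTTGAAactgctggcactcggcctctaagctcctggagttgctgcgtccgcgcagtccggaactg
Cenpf: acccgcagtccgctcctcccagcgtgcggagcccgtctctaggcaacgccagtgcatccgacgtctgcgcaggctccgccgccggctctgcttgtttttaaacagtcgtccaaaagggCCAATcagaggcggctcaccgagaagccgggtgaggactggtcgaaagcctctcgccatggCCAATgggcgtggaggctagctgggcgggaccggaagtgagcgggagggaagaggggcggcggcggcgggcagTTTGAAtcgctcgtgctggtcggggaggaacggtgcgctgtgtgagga
Ube2c: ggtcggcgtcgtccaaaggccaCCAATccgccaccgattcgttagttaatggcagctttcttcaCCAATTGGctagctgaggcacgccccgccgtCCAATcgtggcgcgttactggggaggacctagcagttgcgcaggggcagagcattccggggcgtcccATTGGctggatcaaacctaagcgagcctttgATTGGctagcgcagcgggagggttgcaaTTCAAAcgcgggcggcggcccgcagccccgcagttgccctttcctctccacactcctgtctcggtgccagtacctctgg

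All 6 windows hold a CHR and at least 2 CCAAT boxes. A RefSeq window was matched for 40 of the 48 genes, and the others (Aurkb, Ccna2, Cdc25c, Dlgap5, Foxm1, Incenp, Kif20a and Tpx2) are only named. Of those 40 genes, 32 (80%) had TTTGAA on either strand, against 20.2% of all 27025 genes with a window, and 35 (87.5%) had TTTGAA or the variant TTTAAA, against 30.6%. CCAAT was present on either strand in 30 (75%), against 41.1% of all genes, and CHR and CCAAT stood together in 26 (65%), against 7.97%. The E-box CACGTG, which reads the same on both strands and is the best known site of MYC, was present in 2 of the 40 (5%), Anln and Ttk, against 8.09% of all genes. Matches may overlap, as CCAAT and ATTGG do within the Ube2c window, and a match describes letters in the window, not a site in use.

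**Figure D1:**
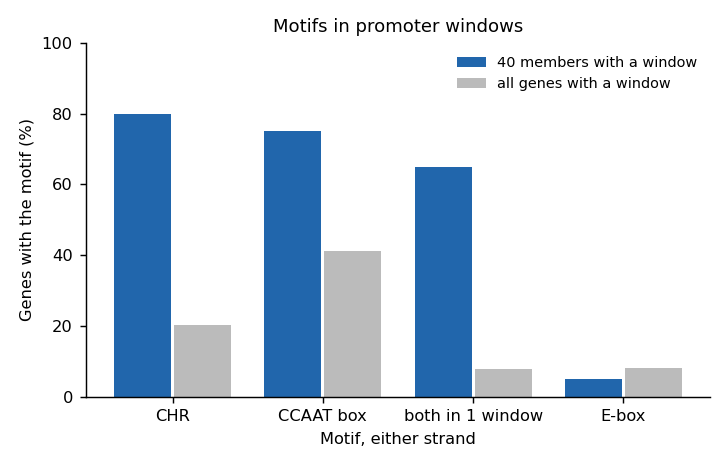
Share of genes whose promoter window (250 bases before to 50 after the start) holds each motif on either strand, in percent, for the 40 mitosis genes with a window (blue) and for all 27025 genes with one (grey). CHR was found in 80% of the mitosis genes and 20.2% of all genes, and the E-box in 5% and 8.09%.

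Library totals lay between 25852711 and 27102318 counts, so depth was nearly even. The human MYC transgene averaged 2024 ± 52.3 CPM at 0 h and, at 2, 4, 8 and 24 h in turn, 24.8 ± 1.98, 9.42 ± 1.46, 5.58 ± 0.553 and 3.29 ± 0.314 CPM (SD, n = 3 each). Every library thus followed its label. CPM of genes are counts scaled to a common library size after TMM, a factor that offsets differences in RNA make-up between libraries. The marker CPM that follow are on unscaled library totals. T cell markers were expressed in every library (15 to 16 of 16 at 1 CPM or more). No B cell marker of 6 and no erythroid marker of 5 reached 1 CPM, whereas 2 of 9 myeloid markers (Itgam and Csf1r, with Lyz2 and Cd14 at 0) and 2 of 6 fibroblast and endothelial markers did. The summed myeloid markers were at 26.8 to 34.1 CPM at 24 h, against 8.80 to 10.96 CPM at 0 h, and the summed fibroblast and endothelial markers at 133 to 165 CPM at 24 h, against 52.5 to 56.6 CPM at 0 h. Which cells hold this marker RNA, the leukemia cells or others, was not tested, nor was its part in the results. Replicate 3 at 24 h stood apart from the other 24 h libraries, with a chi-square of counts per degree of freedom of 85.0 and 93.7 against them. The other pairs of the same time gave 2.94 to 17.9. Each 24 h result below is therefore given with and without it where it matters.

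The 48 mitosis genes took a larger share of the RNA at every time after MYC was turned off. Their share of each library's counts at 0, 2, 4, 8 and 24 h was, in turn, 0.943% ± 0.0133, 1.26% ± 0.0305, 1.44% ± 0.0409, 1.41% ± 0.0311 and 1.75% ± 0.0491 (SD, n = 3 each). In single libraries it was 1.74%, 1.71% and 1.80% at 24 h, against 0.957%, 0.931% and 0.941% at 0 h, so the groups did not overlap, and replicate 3 had the largest share at 24 h. Because every library is bulk RNA, a change in the number of cells in mitosis and a change in the RNA each such cell holds cannot be told apart. The deposited TPM values, which divide by gene length, summed over the 48 genes in the same order to 5880 ± 109, 7687 ± 291, 8298 ± 198, 8358 ± 394 and 10674 ± 545. Ribosomal protein genes took 5.49%, 5.83% and 3.52% of the counts at 24 h, against 10.2%, 10.7% and 10.7% at 0 h, and the part of this in the shares was not tested.

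**Figure D2:**
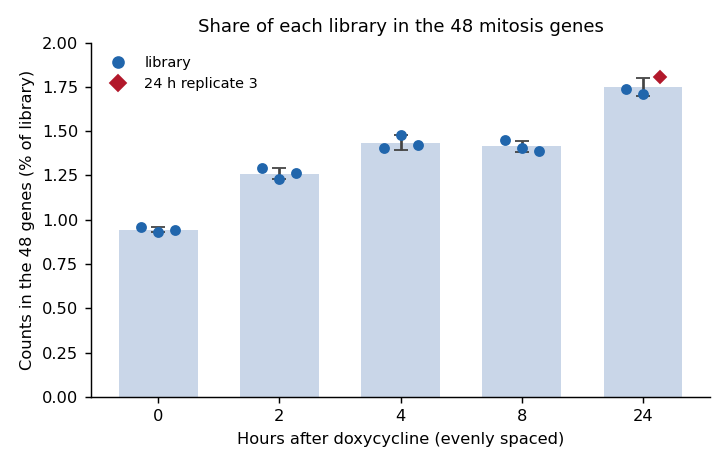
Counts in the 48 mitosis genes as a percentage of each library's counts (vertical axis) against hours after doxycycline (0, 2, 4, 8 and 24, evenly spaced on the horizontal axis). Bars are means of 3 libraries, error bars SD, points single libraries and the diamond 24 h replicate 3, and the 24 h libraries sit between 1.71% and 1.80%, above the 0 h libraries at 0.931% to 0.957%.

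Gene by gene, most of the 48 rose and almost none fell. Counts were compared with edgeR's quasi-likelihood test over all 15 libraries, with p adjusted by Benjamini-Hochberg over all tested genes and a threshold of 0.01 for a call. At 2 h against 0 h 29 of the 48 were called higher and 0 lower, where 6.6% of all tested genes were called higher and 8.59% lower. At 4 h 38 were called higher and 0 lower, beside 18.1% and 19.9% of all tested genes. At 8 h the counts were 34 higher and 0 lower, beside 25.3% and 25.1%, and at 24 h 39 higher and 1 lower, beside 30.7% and 28.1%. The rise was moderate in size. At 2, 4, 8 and 24 h the median log2 fold change of the 48 was, in turn, 0.42, 0.57, 0.50 and 0.61, where the median of all tested genes was 0.01, 0.08, 0.09 and 0.07. At 2 h all 3 libraries lay above all 0 h libraries in 43 of the 48 and below them in 1, beside 25.2% and 26.8% of all tested genes. These counts were 44 and 3 at 4 h (35% and 30.2%), 40 and 3 at 8 h (38.9% and 34.1%), and 40 and 1 at 24 h (36.1% and 33.1%). The 4 comparisons share the 0 h libraries. Over the 5 times the mean level was lowest at 0 h in 40 of the 48, a count not made for all tested genes.

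The counts moved with 24 h replicate 3 and, for the lower genes, with the scaling. Without that library the 48 split into 35 higher and 0 lower at 2 h (11.9% and 14.8% of all genes), 43 and 1 at 4 h (26.5% and 24.8%), 39 and 1 at 8 h (31.8% and 29.6%) and 40 and 1 at 24 h (32% and 30.7%). Unscaled library totals in place of TMM shifted the all-gene median log2 fold change by 0.11 at 8 h and 0.27 at 24 h. Upper-quartile factors shifted it by 0.10, 0.16 and 0.14 at 4, 8 and 24 h. At 24 h the median of the 48 was then 0.88 with library totals, where all genes were at 0.35, and 0.75 with upper-quartile factors, where all genes were at 0.22. The 48 stayed above the median of all genes under each of these scalings, with 44 and 42 called higher and 0 lower at 24 h. Of all tested genes 43.9% and 37.1% were then called higher, and 19.7% and 23.4% lower.

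**Figure D3:**
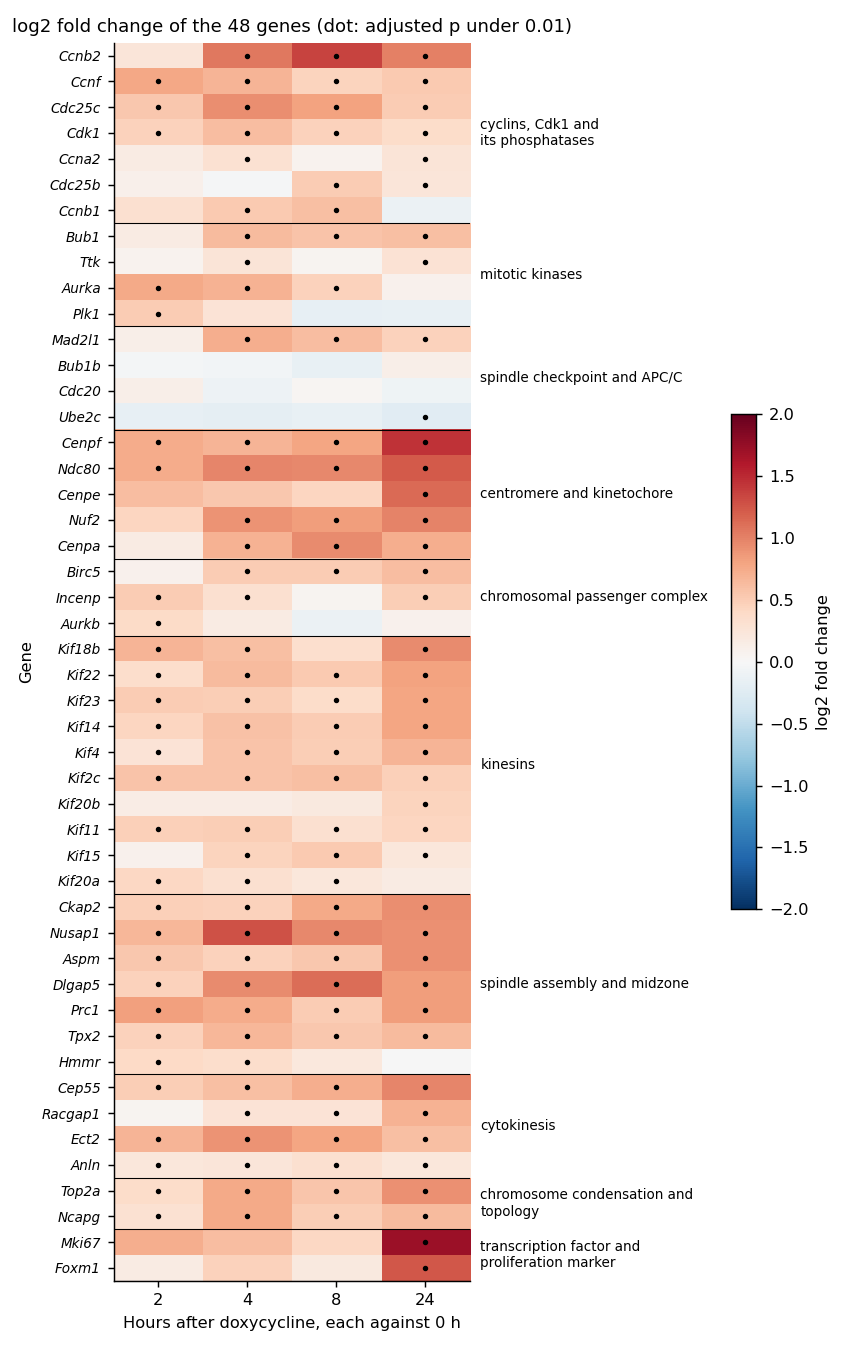
Log2 fold change against 0 h of each of the 48 mitosis genes (rows, grouped by role) at 2, 4, 8 and 24 h (columns), from the TMM-scaled counts, with colour for the size and direction of the change. Most cells are on the higher side at all 4 times, from the 46 positive values at 2 h to the 43 at 24 h, and the row of Ube2c is on the lower side.

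Cdk1, the cyclins and the phosphatases that act on Cdk1 mostly rose, with unlike timing. Of these 7 genes 3 were called higher at 2 h and 6 at each of 4, 8 and 24 h, and 0 lower. For this and each later role, the shares of all tested genes called higher were 6.6%, 18.1%, 25.3% and 30.7% at 2, 4, 8 and 24 h. The shares called lower were 8.59%, 19.9%, 25.1% and 28.1%. Cdk1, the kinase that starts mitosis, had 272, 280.2 and 286 CPM at 0 h, 385, 391 and 381 CPM at 2 h and 400.3, 426 and 462 CPM at 4 h. At 8 h it had 382, 378 and 390.4 CPM, and at 24 h 399, 399.7 and 283 CPM. All libraries at 2, 4 and 8 h were above the 0 h libraries, whereas at 24 h replicates 1 and 2 were above and replicate 3 lay within the 0 h range. Cdk1 was called higher at 2 h (adjusted p = 0.00329 by edgeR). That call was lost in 6 of 23 alternatives, those without any 1 of the 0 h or 2 h libraries. Cdk1 rose at 4 h (log2 fold change 0.62, SE 0.102, adjusted p = 0.000118 by edgeR). At 24 h it was also called (log2 fold change 0.37, SE 0.102, adjusted p = 0.00467 by edgeR), at 0.52 without replicate 3, but the call was lost in 13 of 23 alternatives, 12 of them fits without 1 library. Cdk1 had an adjusted p of 2.95e-08 to 0.0719 by edgeR or DESeq2 over these alternatives. Ccnb1, the cyclin B that carries Cdk1 into the nucleus, had 510.1, 527 and 545 CPM at 0 h, 649, 676 and 656 CPM at 2 h and 689, 769 and 806 CPM at 4 h. Later levels were 775, 773 and 860.3 CPM at 8 h and 529.5, 544 and 388 CPM at 24 h. Its levels at 4 and 8 h were above every 0 h library, and at 24 h they overlapped them. Ccnb1 rose at 8 h (log2 fold change 0.61, SE 0.104, adjusted p = 0.000119 by edgeR). At 24 h against 0 h it was not called (log2 fold change −0.11, SE 0.104, adjusted p = 0.343 by edgeR), and its value was 0.027 without replicate 3.

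Ccnb2, the second B-type cyclin, rose more than any other member at 8 h. It had 186, 189.5 and 195 CPM at 0 h, 235, 221 and 219.9 CPM at 2 h, 358, 407 and 422 CPM at 4 h, 476, 491 and 494 CPM at 8 h and 418, 429 and 295 CPM at 24 h. Every library from 4 h on was above the 0 h libraries, with the highest levels at 8 h and replicate 3 the lowest at 24 h. The change was large at 8 h (log2 fold change 1.36, SE 0.1105, adjusted p = 3.56e-08 by edgeR) and still so at 24 h (log2 fold change 1.00, SE 0.1097, adjusted p = 7.94e-07 by edgeR), where it was 1.157 without replicate 3. Ccnf, cyclin F, which marks cell cycle proteins for destruction, was among the earliest to change. It had 134, 126 and 131 CPM at 0 h, 229, 218 and 222 CPM at 2 h and 216, 200.4 and 210.4 CPM at 4 h. At 8 h it had 194, 173 and 167 CPM, and at 24 h 189.8, 187 and 186 CPM. The 2 h libraries were its highest and did not overlap the 0 h libraries (log2 fold change 0.78, SE 0.0622, adjusted p = 5.04e-07 by edgeR). Ccna2, cyclin A, averaged 535 ± 18.8 CPM at 24 h and 448 ± 8.69 CPM at 0 h (SD, n = 3 each), a smaller rise (log2 fold change 0.25, SE 0.0558, adjusted p = 0.0008 by edgeR). Ccna2 overlaps Exosc9 on the other strand, and no strand setting of the authors' counting was found, so reads of such partners may be mixed.

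The phosphatases that remove the inhibitory phosphates from Cdk1 differed in time. Cdc25c averaged 45.1 ± 1.17 CPM at 4 h and 23.7 ± 2.03 CPM at 0 h (SD, n = 3 each) and rose by 4 h (log2 fold change 0.93, SE 0.0747, adjusted p = 5.5e-08 by edgeR). Cdc25b had 221, 203 and 212 CPM at 0 h, 232, 223 and 226 CPM at 2 h and 215, 209 and 204 CPM at 4 h. Later levels were 322, 303 and 278 CPM at 8 h and 242, 232 and 280.1 CPM at 24 h. Its 8 h libraries stood above those at 0, 2 and 4 h, and 24 h replicate 3 reached into their range. It was called higher at 8 h (log2 fold change 0.50, SE 0.0741, adjusted p = 2.5e-05 by edgeR). The 24 h call for Cdc25b (log2 fold change 0.25, SE 0.07396, adjusted p = 0.00783 by edgeR) was lost without replicate 3 (0.16, adjusted p = 0.0174 by edgeR) and in 19 of 23 alternatives in all. Cdc25b overlaps Spef1 on the other strand.

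**Figure D4:**
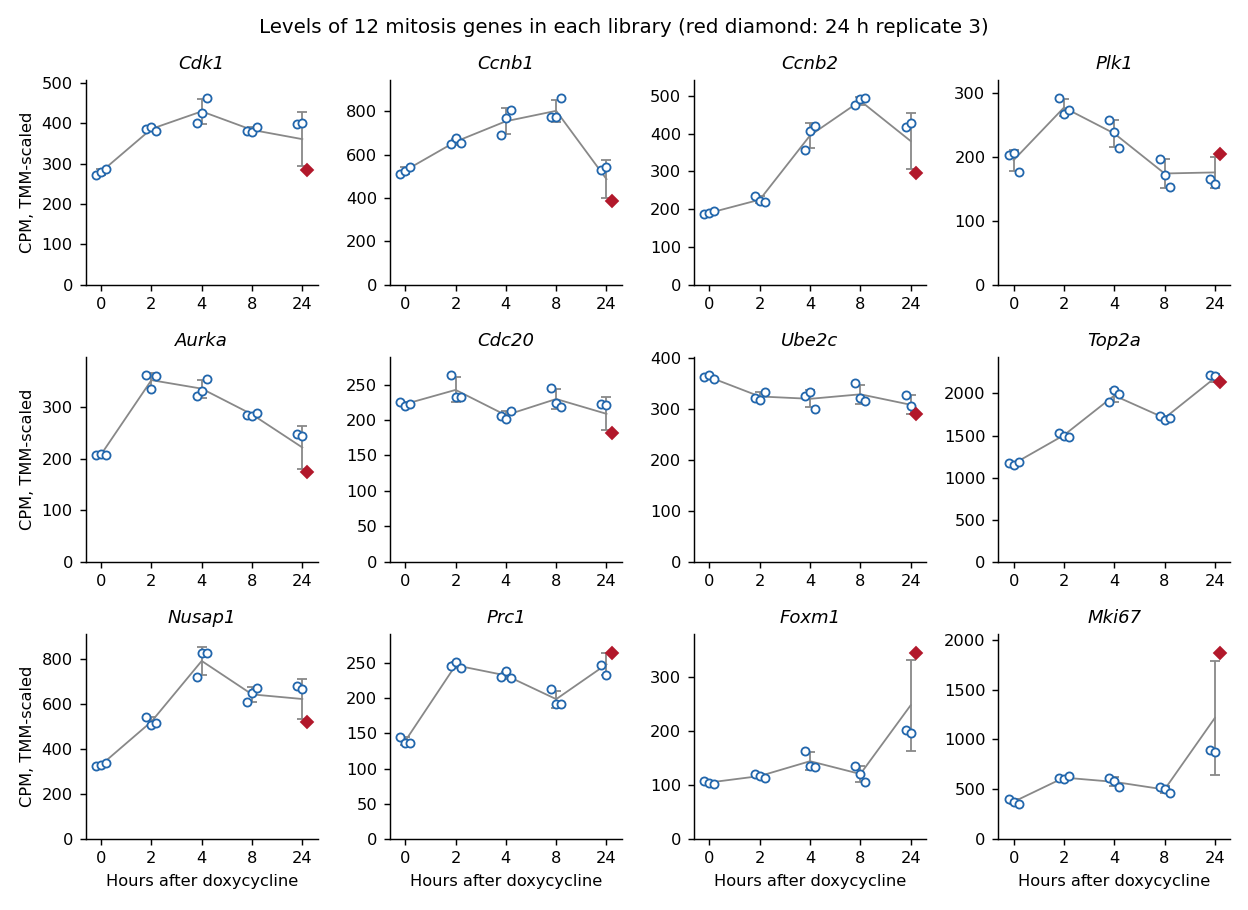
CPM on TMM-scaled totals (vertical axes, from 0) of 12 mitosis genes against hours after doxycycline (0, 2, 4, 8 and 24, evenly spaced on the horizontal axes). Points are single libraries, lines join the means of 3, error bars are SD and the red diamond is 24 h replicate 3, which for Mki67 lies at 1873 CPM, above the other 24 h libraries at 896 and 877 CPM.

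Among the mitotic kinases, Plk1 and Aurka were highest at 2 h and were not called at 24 h, whereas Bub1 and Ttk were. Of these 4 genes 2, 3, 2 and 2 were called higher at 2, 4, 8 and 24 h, with 0 lower. Plk1, the polo-like kinase that matures the spindle poles, had 203, 207 and 176 CPM at 0 h, 292, 267 and 273 CPM at 2 h, 257, 239 and 214 CPM at 4 h, 198, 172 and 153 CPM at 8 h and 165, 158 and 204 CPM at 24 h. The 2 h libraries were above all others, the 4 h libraries were above the 0 h libraries, and at 8 and 24 h the ranges overlapped that of 0 h. Plk1 rose at 2 h (log2 fold change 0.51, SE 0.1098, adjusted p = 0.003 by edgeR), a call that was lost without 0 h replicate 3 (adjusted p = 0.0215 by edgeR) and without 2 h replicate 1 (adjusted p = 0.0167 by edgeR). At 24 h it was not called (log2 fold change −0.15, SE 0.1098, adjusted p = 0.236 by edgeR), nor without replicate 3 (−0.27, adjusted p = 0.0111 by edgeR). Aurka, the Aurora kinase of the spindle poles, had 207, 209 and 208 CPM at 0 h, 362, 335 and 360.5 CPM at 2 h and 321, 332 and 355 CPM at 4 h. At 8 h it had 286, 283 and 289.6 CPM, and at 24 h 248, 244 and 174 CPM. All of its 2, 4 and 8 h libraries were above the 0 h libraries, and at 24 h replicate 3 fell below them while replicates 1 and 2 stayed above. The rise was largest at 2 h (log2 fold change 0.76, SE 0.101, adjusted p = 5.61e-05 by edgeR). At 24 h it was not called (log2 fold change 0.09, SE 0.101, adjusted p = 0.434 by edgeR), but without replicate 3 it was called higher (0.24, adjusted p = 0.000376 by edgeR).

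Bub1 and Ttk, kinases of the spindle checkpoint, took another course. Bub1 averaged 211 ± 14.98 CPM at 24 h and 138 ± 7.76 CPM at 0 h (SD, n = 3 each), and was called higher from 4 h on, with similar changes at 4 h (log2 fold change 0.64, SE 0.0738, adjusted p = 3.14e-06 by edgeR) and 24 h (log2 fold change 0.61, SE 0.0738, adjusted p = 2.56e-06 by edgeR). Without 24 h replicate 3 they were 0.64 and 0.67. Ttk moved little. It averaged 67.7 ± 1.04 CPM at 24 h and 55.3 ± 0.868 CPM at 0 h (SD, n = 3 each), with all 24 h libraries above the 0 h libraries (log2 fold change 0.29, SE 0.0554, adjusted p = 0.000231 by edgeR).

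The genes of the spindle checkpoint and of the APC/C are too few for their calls to be set apart from those of all tested genes. Of their 4 genes 0 were called higher at 2 h and 1, Mad2l1, at each later time. Of all tested genes 6.6%, 18.1%, 25.3% and 30.7% were called higher at 2, 4, 8 and 24 h. Mad2l1, the checkpoint protein that holds back the APC/C, had 299.7, 322 and 330.0 CPM at 0 h, 323, 343 and 361 CPM at 2 h and 489, 528 and 565 CPM at 4 h. Later levels were 438, 481 and 534 CPM at 8 h and 493, 498 and 323 CPM at 24 h. Its 4 and 8 h libraries were all above 0 h, and 24 h replicate 3 lay inside the 0 h range. Mad2l1 rose at 4 h (log2 fold change 0.73, SE 0.12998, adjusted p = 0.000229 by edgeR). At 24 h it was called (log2 fold change 0.47, SE 0.1296, adjusted p = 0.00481 by edgeR), at 0.64 without replicate 3, but the call was lost in 13 of 23 alternatives, 12 of them fits without 1 library. Mad2l1 had an adjusted p of 8.54e-08 to 0.0561 by edgeR or DESeq2 over these alternatives.

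Cdc20, which activates the APC/C at anaphase, had 225, 220.5 and 222 CPM at 0 h, 263, 232 and 233 CPM at 2 h, 205, 202 and 213 CPM at 4 h, 245, 225 and 219 CPM at 8 h and 223, 222 and 182 CPM at 24 h. It was slightly above the 0 h libraries at 2 h and slightly below them at 4 h, and it overlapped them at 8 and 24 h. Cdc20 was not called at 24 h (log2 fold change −0.09, SE 0.0796, adjusted p = 0.312 by edgeR). Bub1b, which encodes the checkpoint protein BubR1, had 232, 224 and 229 CPM at 0 h, 232, 219 and 216 CPM at 2 h and 223, 224 and 211 CPM at 4 h. At 8 h it had 219, 199 and 198 CPM, and at 24 h 243, 238 and 261 CPM. The 24 h libraries were all above the 0 h libraries, by too little to be called (log2 fold change 0.12, SE 0.0611, adjusted p = 0.104 by edgeR). Without 24 h replicate 3 it was called lower at 8 h (−0.15, adjusted p = 0.00931 by edgeR). Ube2c, the enzyme that hands ubiquitin to the APC/C, had 362, 365 and 359 CPM at 0 h, 321, 318 and 333 CPM at 2 h and 326, 332 and 300.3 CPM at 4 h. Later levels were 349.6, 321 and 314 CPM at 8 h and 327, 306 and 289.6 CPM at 24 h. Every later library was below the 0 h libraries, and at 24 h Ube2c was the only member called lower (log2 fold change −0.23, SE 0.0646, adjusted p = 0.0045 by edgeR). That direction depended on the scaling. With unscaled library totals the log2 fold change was 0.041, and by the deposited TPM Ube2c was at 108.3% of its 0 h level. In 6 more of the 23 alternatives Ube2c stayed lower but lost the call, 4 of them the fits without 0 h replicate 1, 2 or 3 or without 24 h replicate 2 (adjusted p = 0.0129, 0.0155, 0.011 and 0.0124 by edgeR). Cdc20 and Ube2c overlap Elovl1 and Tnnc2 on the other strand.

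The centromere and kinetochore genes were among those that changed most at 24 h. Of these 5 genes 2, 4, 4 and 5 were called higher at 2, 4, 8 and 24 h, and their median log2 fold change at 24 h was 1.13, and 1.162 without replicate 3. Ndc80, which binds the microtubule end, had 63.4, 64.1 and 63.2 CPM at 0 h, 102, 108 and 107 CPM at 2 h, 119, 123 and 133 CPM at 4 h, 118, 123 and 129.9 CPM at 8 h and 161, 163 and 122 CPM at 24 h. No later library overlapped the 0 h libraries, and replicates 1 and 2 at 24 h were the highest. Ndc80 rose at 24 h (log2 fold change 1.22, SE 0.0919, adjusted p = 1e-08 by edgeR), at 1.35 without replicate 3. Its partner Nuf2 averaged 320.1 ± 66.1 CPM at 24 h and 160.2 ± 6.39 CPM at 0 h (SD, n = 3 each), with a like change (log2 fold change 1.00, SE 0.123, adjusted p = 2.91e-06 by edgeR). Cenpa, the histone variant that marks the centromere, averaged 213 ± 9.003 CPM at 8 h and 111 ± 3.199 CPM at 0 h (SD, n = 3 each), and its largest change was at 8 h (log2 fold change 0.94, SE 0.0872, adjusted p = 1.57e-07 by edgeR).

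Cenpf and Cenpe, large proteins of the outer kinetochore, rose most at 24 h. Cenpf had 109, 102 and 95.8 CPM at 0 h, 170.5, 164 and 181 CPM at 2 h and 173, 167 and 149 CPM at 4 h. At 8 h it had 191, 177 and 163 CPM, and at 24 h 237, 231 and 365 CPM. All later libraries were above the 0 h libraries, and replicate 3 at 24 h was far above the other 24 h libraries. Its change at 24 h was large (log2 fold change 1.44, SE 0.139, adjusted p = 1.84e-07 by edgeR) and was 1.19 without replicate 3. Cenpe, a kinesin that carries chromosomes to the spindle equator, had 93.02, 76.3 and 78.97 CPM at 0 h, 134, 117 and 128 CPM at 2 h and 134, 122 and 105 CPM at 4 h. Later levels were 121, 112 and 102 CPM at 8 h and 148, 139.6 and 255 CPM at 24 h. Its libraries at 2, 4 and 8 h were also above those at 0 h, but Cenpe was called only at 24 h (log2 fold change 1.13, SE 0.179, adjusted p = 4.16e-05 by edgeR). Without replicate 3 it was called at 2, 4, 8 and 24 h, at 0.61, 0.54, 0.43 and 0.80.

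The chromosomal passenger complex, which corrects wrong attachments and steers cytokinesis, was uneven in its 3 genes, of which 2, 2, 1 and 2 were called higher at 2, 4, 8 and 24 h. Aurkb, its kinase, had 156, 153 and 158 CPM at 0 h, 208, 195 and 202 CPM at 2 h, 183, 169 and 171 CPM at 4 h, 151, 138 and 139 CPM at 8 h and 161, 164 and 168 CPM at 24 h. The 2 h libraries were highest, the 8 h libraries were below the 0 h libraries and the 24 h libraries a little above them. Aurkb rose at 2 h (log2 fold change 0.38, SE 0.0576, adjusted p = 0.000192 by edgeR) and was not called at 24 h (log2 fold change 0.08, SE 0.0575, adjusted p = 0.217 by edgeR). Birc5, survivin, averaged 361 ± 63.8 CPM at 24 h and 236 ± 1.62 CPM at 0 h (SD, n = 3 each) and rose (log2 fold change 0.61, SE 0.101, adjusted p = 6.15e-05 by edgeR). Without 24 h replicate 3 the change of Birc5 was 0.75. Incenp, the scaffold, averaged 276 ± 22.6 CPM at 24 h and 197 ± 4.52 CPM at 0 h (SD, n = 3 each). It rose at 2 h (log2 fold change 0.50, SE 0.0689, adjusted p = 7.61e-05 by edgeR) and at 24 h (log2 fold change 0.49, SE 0.0688, adjusted p = 1.22e-05 by edgeR), and its 8 h libraries overlapped those at 0 h.

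Of the 10 kinesins 8, 9, 8 and 9 were called higher at 2, 4, 8 and 24 h, with 0 lower. Of all tested genes 6.6%, 18.1%, 25.3% and 30.7% were called higher at these times. Of 23 alternatives, the call for Kif4 at 2 h was lost in 5, for Kif20a at 8 h in 10 and for Kif15 at 24 h in 13. Kif11, the motor that pushes the spindle poles apart, averaged 530.1 ± 36.04 CPM at 24 h and 393 ± 9.02 CPM at 0 h (SD, n = 3 each), with its change in place by 2 h (log2 fold change 0.48, SE 0.0591, adjusted p = 2.47e-05 by edgeR). Kif18b and Kif2c, which shorten microtubules, both rose by 2 h. Kif18b averaged 166 ± 39.4 CPM at 24 h and 86.6 ± 1.49 CPM at 0 h (SD, n = 3 each), the largest change of a kinesin at 24 h (log2 fold change 0.94, SE 0.132, adjusted p = 1.17e-05 by edgeR). Without replicate 3 it was 0.73, below the 0.77 of Kif22. Kif2c averaged 155 ± 6.05 CPM at 24 h and 112 ± 4.24 CPM at 0 h (SD, n = 3 each) (log2 fold change 0.47, SE 0.0613, adjusted p = 5.52e-06 by edgeR). Kif23 and Kif20a are motors of the central spindle. Kif23 averaged 149 ± 16.03 CPM at 24 h and 85.8 ± 2.88 CPM at 0 h (SD, n = 3 each) and rose (log2 fold change 0.80, SE 0.0761, adjusted p = 1.68e-07 by edgeR), at 0.70 without replicate 3. Kif20a, the kinesin not called at 24 h, had 236, 227 and 232 CPM at 0 h, 318, 306 and 303 CPM at 2 h and 285, 303 and 281 CPM at 4 h. At 8 h it had 282, 261 and 269 CPM, and at 24 h 254, 264 and 257 CPM. All its later libraries were above the 0 h libraries, but those at 24 h only slightly (log2 fold change 0.16, SE 0.0553, adjusted p = 0.0198 by edgeR), and without replicate 3 it was called higher (0.16, adjusted p = 0.0098 by edgeR). Kif20a overlaps Cdc23 on the other strand.

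The chromokinesins Kif4 and Kif22, which bind chromosome arms, were both called higher at 24 h. Kif4 averaged 169.5 ± 4.02 CPM at 24 h and 106 ± 4.504 CPM at 0 h (log2 fold change 0.68, SE 0.0599, adjusted p = 6.91e-08 by edgeR), and Kif22 168 ± 5.31 CPM at 24 h and 96.7 ± 2.55 CPM at 0 h (log2 fold change 0.80, SE 0.0685, adjusted p = 4.75e-08 by edgeR) (SD, n = 3 each). Kif14, which acts in cytokinesis, averaged 162 ± 11.1 CPM at 24 h and 94.1 ± 3.53 CPM at 0 h (SD, n = 3 each) (log2 fold change 0.78, SE 0.0667, adjusted p = 4.51e-08 by edgeR). Kif15 and Kif20b moved less. Kif15, a backup for Kif11 on the spindle, averaged 348 ± 6.65 CPM at 8 h and 241 ± 5.92 CPM at 0 h (SD, n = 3 each), and its change was largest at 8 h (log2 fold change 0.53, SE 0.0615, adjusted p = 2.11e-06 by edgeR). Kif20b was called at 24 h, and also at 8 h without 24 h replicate 3 (0.19, adjusted p = 0.00497 by edgeR). At 24 h it was at 129 ± 14.997 CPM against 94.3 ± 4.15 CPM at 0 h (SD, n = 3 each) (log2 fold change 0.45, SE 0.0818, adjusted p = 0.000159 by edgeR).

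The genes of spindle assembly and of the midzone rose early. Of these 7 genes 7, 7, 6 and 6 were called higher at 2, 4, 8 and 24 h. The call for Aspm was lost in 7 of 23 alternatives at 2 h, those without any 1 of the 0 h or 2 h libraries among them, and in 13 at 4 h. Prc1, which bundles microtubules between the separating chromosomes, had the largest change of the 48 at 2 h. It had 145, 136 and 137 CPM at 0 h, 246, 252 and 244 CPM at 2 h and 231, 239 and 228 CPM at 4 h. Later levels were 213, 193 and 191 CPM at 8 h and 247, 233 and 265 CPM at 24 h. Every later library was above the 0 h libraries, with the 8 h libraries the lowest among them. Prc1 rose at 2 h (log2 fold change 0.83, SE 0.0637, adjusted p = 3.36e-07 by edgeR). Nusap1, which binds spindle microtubules near chromosomes, had the largest change at 4 h. It had 323, 328 and 337 CPM at 0 h, 544, 506 and 518 CPM at 2 h, 721, 829 and 831 CPM at 4 h, 609, 652 and 672 CPM at 8 h and 679.8, 669.6 and 521 CPM at 24 h. Every later library was above the 0 h libraries, with the 4 h libraries highest (log2 fold change 1.27, SE 0.0929, adjusted p = 1.89e-08 by edgeR). Prc1 overlaps Rccd1, and Nusap1 overlaps Oip5, on the other strand.

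Dlgap5, a protein of kinetochore fibres also known as HURP, had 183, 175 and 188 CPM at 0 h, 263, 241 and 249 CPM at 2 h and 321, 369 and 362 CPM at 4 h. In later libraries it had 389.6, 397 and 399.8 CPM at 8 h and 347, 336 and 289.8 CPM at 24 h. Every later library was above the 0 h libraries, and the 8 h libraries were the highest (log2 fold change 1.12, SE 0.07604, adjusted p = 4.33e-09 by edgeR). Tpx2, which activates Aurka at the spindle, averaged 422 ± 19.7 CPM at 24 h and 271 ± 5.38 CPM at 0 h (SD, n = 3 each) (log2 fold change 0.64, SE 0.0585, adjusted p = 1.03e-07 by edgeR). Aspm, a spindle pole protein, averaged 228 ± 56.8 CPM at 24 h and 120.5 ± 8.804 CPM at 0 h (SD, n = 3 each) (log2 fold change 0.92, SE 0.129, adjusted p = 1.18e-05 by edgeR), a change of 0.70 without replicate 3. Ckap2, another microtubule-binding protein, averaged 103 ± 12.1 CPM at 24 h and 54.4 ± 2.93 CPM at 0 h (SD, n = 3 each) (log2 fold change 0.92, SE 0.0845, adjusted p = 1.03e-07 by edgeR), a change of 1.02 without replicate 3. Hmmr differed from these. It encodes a spindle pole protein that also binds hyaluronan, and had 284, 279 and 276 CPM at 0 h, 365, 353 and 382 CPM at 2 h and 325, 388 and 354 CPM at 4 h. In later libraries it had 325, 321 and 328 CPM at 8 h and 288, 284 and 264 CPM at 24 h. Its 2, 4 and 8 h libraries were above the 0 h libraries, and the 24 h libraries overlapped them. Hmmr rose at 2 h (log2 fold change 0.39, SE 0.0668, adjusted p = 0.000475 by edgeR) and was not called at 24 h (log2 fold change −0.01, SE 0.0667, adjusted p = 0.941 by edgeR), although it was called higher there on unscaled library totals (0.27, adjusted p = 0.00191 by edgeR).

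The cytokinesis genes were called higher in 3 of 4 cases at 2 h and in 4 of 4 at each later time. Of 23 alternatives, the Anln call was lost in 16 at 2 h and 10 at 4 h, and the Racgap1 call in 6 at 4 h and 7 at 8 h. Ect2, which turns on RhoA at the cell equator, averaged 307 ± 26.1 CPM at 4 h and 165 ± 2.67 CPM at 0 h (SD, n = 3 each), its largest change (log2 fold change 0.89, SE 0.08399, adjusted p = 3.31e-07 by edgeR). Its partner Racgap1 averaged 603 ± 48.5 CPM at 24 h and 372 ± 0.501 CPM at 0 h (SD, n = 3 each), and changed most at 24 h (log2 fold change 0.69, SE 0.0643, adjusted p = 1.15e-07 by edgeR). Cep55, which works at the final cut between daughter cells, averaged 172 ± 13.9 CPM at 24 h and 86.9 ± 4.096 CPM at 0 h (SD, n = 3 each) (log2 fold change 0.98, SE 0.07595, adjusted p = 1.37e-08 by edgeR). Anln, anillin of the contractile ring, changed least. It averaged 128 ± 7.84 CPM at 24 h and 109.7 ± 2.67 CPM at 0 h (SD, n = 3 each) (log2 fold change 0.22, SE 0.0575, adjusted p = 0.00311 by edgeR), and the call was lost in 13 of 23 alternatives, 10 of them fits without 1 library. Anln had an adjusted p of 3.27e-06 to 0.106 by edgeR or DESeq2 over these alternatives.

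Top2a and Ncapg, which untangle and condense chromosomes, were called higher at 2, 4, 8 and 24 h. Top2a, DNA topoisomerase II alpha, had the most CPM of the 48 genes in every library. It had 1168, 1144 and 1180.3 CPM at 0 h, 1535, 1497 and 1481 CPM at 2 h, 1893, 2045 and 1989 CPM at 4 h, 1728, 1690.5 and 1705 CPM at 8 h and 2214, 2208 and 2133 CPM at 24 h. Every later library was above the 0 h libraries, and the 24 h libraries, replicate 3 included, were the highest of all. Top2a rose at 24 h (log2 fold change 0.91, SE 0.0585, adjusted p = 1.63e-09 by edgeR), at 0.93 without replicate 3. Ncapg, a condensin subunit, averaged 236 ± 8.71 CPM at 4 h and 140.3 ± 1.44 CPM at 0 h (SD, n = 3 each), its largest change (log2 fold change 0.75, SE 0.0738, adjusted p = 5.57e-07 by edgeR). Its call at 2 h was lost in 12 of 23 alternatives.

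Foxm1 and Mki67 had a median of 1.48 at 24 h with all libraries and 1.09 without replicate 3, which for both was far above the other 24 h libraries. Mki67, which encodes the proliferation antigen Ki-67, had 397, 373 and 347 CPM at 0 h, 615, 599 and 632 CPM at 2 h and 615, 577 and 525 CPM at 4 h. In later libraries it had 524, 501 and 461 CPM at 8 h and 896, 877 and 1873 CPM at 24 h. All later libraries were above those at 0 h, and replicate 3 at 24 h had more than the other 24 h libraries together. At 24 h Mki67 was called (log2 fold change 1.71, SE 0.2101, adjusted p = 2.91e-06 by edgeR). Without replicate 3 its change was 1.25, and it was then also called at 2 h (0.73, adjusted p = 8.29e-09 by edgeR), where it missed the threshold with all libraries (log2 fold change 0.72, SE 0.206, adjusted p = 0.017 by edgeR). Foxm1, the forkhead factor that drives transcription of G2 and M phase genes, had 108, 104 and 102 CPM at 0 h, 120.1, 116 and 114 CPM at 2 h and 164, 136 and 133 CPM at 4 h. In later libraries it had 135, 121 and 105 CPM at 8 h and 203, 196 and 346 CPM at 24 h. Its libraries at 2, 4 and 24 h were above the 0 h libraries, and at 8 h they overlapped. Foxm1 rose at 24 h (log2 fold change 1.25, SE 0.168, adjusted p = 7.9e-06 by edgeR), at 0.93 without replicate 3. At 4 h it was not called (log2 fold change 0.46, SE 0.167, adjusted p = 0.0304 by edgeR), but it was without replicate 3 (0.46, adjusted p = 2.32e-05 by edgeR).

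**Figure D5:**
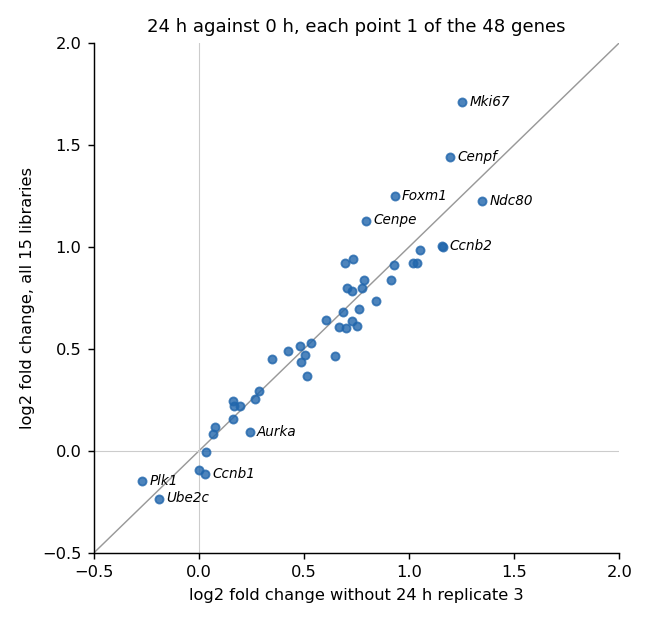
Log2 fold change at 24 h against 0 h of the 48 mitosis genes with all 15 libraries (vertical axis) and without 24 h replicate 3 (horizontal axis), with the diagonal as the line of equal values. Mki67 (1.71 and 1.25), Cenpf (1.44 and 1.19), Foxm1 (1.25 and 0.93) and Cenpe (1.13 and 0.80) lie above the diagonal and Ndc80 (1.22 and 1.35) below it.

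Levels in 24 h replicate 3 differed from those in the other 24 h libraries with gene length over all tested genes, and less evenly among the members. Its level relative to the mean of the other 24 h libraries had a median of 0.818 for the 3 members with lengths in the files of up to 2000 bases, 0.987 for 13 members of 2001 to 4000 bases, 0.929 for 16 members of 4001 to 6000 bases and 1.11 for 16 members over 6000 bases. Over all tested genes the medians were 0.830, 0.956, 1.06 and 1.21. Among the members the ratio was highest for Mki67 (2.11, 10061 bases), followed by Cenpe (1.78, 8620 bases), Foxm1 (1.74, 5754 bases) and Cenpf (1.56, 15433 bases). It was lowest for Mad2l1 (0.652, 8390 bases), Nuf2 (0.681, 6341 bases) and Ccnb2 (0.696, 1531 bases). Members over 6000 bases thus ranged from 0.652 to 2.11, and length alone does not order the members.

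By length-scaled level the genes also differed widely from each other. In TPM at 24 h Ccnb2 (823 ± 101 TPM) and Top2a (811 ± 51.1 TPM) led, and Ccnb1 was at 383 ± 39.2 TPM and Ube2c at 395 ± 18.6 TPM (SD, n = 3 each). At 0 h Ube2c (365 ± 5.79 TPM), Top2a (339 ± 9.41), Ccnb1 (328 ± 8.72), Ccnb2 (326 ± 6.22) and Cdc20 (313 ± 8.51) were highest, and Cenpf (17.4 ± 1.35 TPM), Kif14 (23.8 ± 0.626) and Cenpe (25.2 ± 3.15) lowest (SD, n = 3 each). Ccnb1 and Ccnb2 differed at 0 h by less than the spread between libraries.

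The steps between neighbouring times show when the genes moved. From 2 h on to 4 h, 14 of the 48 rose further and 0 fell, beside 7.72% and 13% of all tested genes, and their median log2 fold change was 0.12. The largest step was that of Ccnb2 (log2 fold change 0.81, SE 0.109, adjusted p = 3.82e-05 by edgeR), followed by Mad2l1 (log2 fold change 0.62, SE 0.1298, adjusted p = 0.00171 by edgeR) and Nusap1 (log2 fold change 0.60, SE 0.0917, adjusted p = 0.000125 by edgeR). The step of Mad2l1 lost its call without 2 h replicate 1, 4 h replicate 2 or 4 h replicate 3 (adjusted p up to 0.0194 by edgeR). At 8 h against 4 h only Cdc25b was higher (log2 fold change 0.52, SE 0.0741, adjusted p = 0.000124 by edgeR). Plk1 (log2 fold change −0.44, SE 0.1099, adjusted p = 0.0087 by edgeR), Aurkb (log2 fold change −0.29, SE 0.0576, adjusted p = 0.00198 by edgeR) and Ccna2 (log2 fold change −0.24, SE 0.0558, adjusted p = 0.00566 by edgeR) were lower. For Plk1 the call was lost in 13 of 23 alternatives, 9 of them fits without 1 library. Plk1 had an adjusted p of 0.000123 to 0.043 by edgeR or DESeq2 over these alternatives. For Aurkb the call was lost in 4 of 23 alternatives, 3 of them fits without 1 library. Aurkb had an adjusted p of 1.37e-06 to 0.0191 by edgeR or DESeq2 over these alternatives. For Ccna2 the call was lost in 15 of 23 alternatives, 11 of them fits without 1 library. Ccna2 had an adjusted p of 1.37e-06 to 0.0429 by edgeR or DESeq2 over these alternatives. That is 1 higher and 3 lower, beside 5.73% and 6.97% of all genes. The split was 3 higher and 0 lower on unscaled library totals (7.59% and 4.86% of all genes). It was 4 higher and 13 lower without 24 h replicate 3 (11.6% and 14.5%).

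At 24 h against 8 h 16 of the 48 were higher (33.3%) and 6 lower (12.5%), beside 20.8% and 17.3% of all tested genes. Lower calls were thus no more frequent among the 48 than among all tested genes. The higher genes were led by Mki67 (log2 fold change 1.29, SE 0.208, adjusted p = 0.000126 by edgeR) and Foxm1 (log2 fold change 1.04, SE 0.167, adjusted p = 0.000126 by edgeR), and included Cenpe, Cenpf, Kif18b, Incenp, Kif23, Racgap1 and Top2a. Without 24 h replicate 3 the steps were smaller but still called for Mki67 (0.84), Foxm1 (0.73), Cenpe (0.36, from 0.69) and Cenpf (0.40, from 0.65). For Racgap1 and Top2a the step without it was 0.49 and 0.37. The lower genes were Ccnb1 (log2 fold change −0.72, SE 0.105, adjusted p = 5.24e-05 by edgeR), Aurka (log2 fold change −0.37, SE 0.101, adjusted p = 0.00683 by edgeR), Kif15 (−0.31), Cdc25c (−0.29), Dlgap5 (−0.29) and Cdc25b (−0.26). In the same order they were at −0.58, −0.22, −0.36, −0.33, −0.21 and −0.34 without 24 h replicate 3. The calls for Cenpe, Cdc25c, Dlgap5 and Cdc25b were each lost without at least 1 of the 8 h libraries. For Aurka the call was lost in 10 of 23 alternatives, 7 of them fits without 1 library. Aurka had an adjusted p of 0.000471 to 0.0763 by edgeR or DESeq2 over these alternatives. Without 24 h replicate 3 the split was 24 higher and 7 lower (21.1% and 17.9% of all genes). On unscaled library totals the split was 26 higher and 1 lower (32.01% and 11.02% of all genes). A fit of these 2 times alone gave 0 higher and 1 lower (5.57% and 8.20% of all genes). Over the whole course the mean CPM was highest at 0 h in 1 gene, Ube2c. The peak fell at 2, 4, 8 and 24 h in 8, 10, 8 and 21 genes, and peaks were not counted for all tested genes.

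Most other genes of the same machinery were also higher. In a list of 95 further mitosis genes, 61 were called higher (64.2%) and 5 lower (5.26%) at 24 h against 0 h, with a median log2 fold change of 0.44. Of all tested genes 30.7% were called higher and 28.1% lower there, with a median of 0.07. The largest rises were those of Psrc1, a spindle protein (1.76), Pkmyt1, a kinase that inhibits Cdk1 (1.76), Spc25, a partner of Ndc80 (1.44), and Cit, citron kinase of cytokinesis (1.31). The 5 lower genes were Cse1l, a nuclear export receptor (−1.11), Trip13, which takes checkpoint complexes apart (−1.09), Zwint (−0.48) and Cenph (−0.40) of the kinetochore, and Kpna2, an importin (−0.32).

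Of 17 genes of the APC/C and its regulators 4 were called higher (23.5%) and 4 lower (23.5%) at 24 h, no more than among all tested genes, and their median was −0.10. The higher genes were Fbxo5, which encodes the inhibitor Emi1 (1.21), Anapc11 (1.08), Anapc16 (0.40) and Fzr1, the Cdh1 activator (0.35), and the lower genes were the subunits Anapc1 (−0.43), Anapc5 (−0.39), Cdc16 (−0.38) and Anapc2 (−0.18). At 4 h against 0 h 7 of the 17 were higher (41.2%) and 0 lower, beside 18.1% and 19.9% of all tested genes, with a median of 0.31.

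Among 20 regulators of cell cycle transcription (DREAM, MuvB and E2F genes), 14 were higher (70%) and 4 lower (20%) at 24 h, with a median of 0.53. Of all tested genes 30.7% were higher and 28.1% lower there. Mybl1 (1.65), E2f8 (1.52), E2f2 (1.49) and the pocket protein gene Rbl2 (1.42) rose most, and the E2F partner Tfdp1 (−0.93), E2f6 (−0.79), E2f5 (−0.59) and E2f4 (−0.40) fell. Of 37 S phase genes 17 were higher (45.9%) and 8 lower (21.6%), with a median of 0.14, near the 0.07 of all tested genes. Rrm2 (1.66), the ribonucleotide reductase subunit, and Slbp (1.20), which binds histone mRNA, led the higher genes, and Ung (−1.11) and Pola2 (−0.68) the lower. Earlier the S phase genes also rose more often than all tested genes. At 2 h 15 were higher (40.5%) and 1 lower (2.70%), beside 6.6% and 8.59% of all tested genes, with a median of 0.29. At 4 h 20 were higher (54.1%) and 5 lower (13.5%), beside 18.1% and 19.9%, with a median of 0.35.

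Of 16 tested CDK inhibitors and G1 cyclins 9 were higher (56.25%) and 4 lower (25%) at 24 h, with a median log2 fold change of 1.04. Of all tested genes 30.7% were higher and 28.1% lower, so lower calls were no more frequent in this list. Ccng2 (2.86), Cdkn2d (2.74), Cdkn2b (2.38) and Ccnd3 (2.01) rose, and Ccnd2 (−3.75), Cdk6 (−2.09), Cdk4 (−0.86) and Cdkn2a (−0.64) fell. Cdkn2d, an inhibitor of Cdk4 and Cdk6, averaged 132 ± 19.9 CPM at 24 h and 19.8 ± 0.835 CPM at 0 h, and Ccnd2, cyclin D2, 2.16 ± 0.707 CPM at 24 h and 29.1 ± 1.28 CPM at 0 h (SD, n = 3 each).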

How the data were processed

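PolyA RNA of 15 libraries, 3 each at 0, 2, 4, 8 and 24 h, was sequenced by the authors. Groups follow the time in the labels. For each library the authors deposited raw counts, FPKM and TPM per gene, and their processing notes list build mm10 and the tools cutadapt 1.16, STAR 2.5.4b and featureCounts. Not given in the sources used here are the annotation release and the strand setting. The counts as deposited entered all tests, and the TPM values, scaled by the authors for gene length and depth, gave levels between genes and an alternative scale. FPKM was not used here. Gene names and overlaps come from GENCODE M21 on GRCm38, with 53274 of 53379 mouse gene IDs matched, and promoter sequences from RefSeq on GRCm38.p6.

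Counts were fitted with edgeR 4.0.16 in R 4.3.3 (filterByExpr, TMM, glmQLFit over 15 libraries, 1 mean per time). Each later time was compared with 0 h and with the time before it, at a Benjamini-Hochberg adjusted p under 0.01, and the fit was tested on simulated data. The standard error (SE) is on the log2 scale. Library totals of 25852711 to 27102318 counts set the precision. The alternatives were RLE size factors, library totals, upper-quartile factors, no low-count filter, a fit of only the times compared, DESeq2 1.42.0, at least 10 counts in every library, the replicate number as a block, leaving out each library, an adjusted p under 0.05, and a log2 fold change above 0.58.

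The members, the gene lists and the rule for named genes were chosen with earlier results of these data known. All 48 members are accounted for by role. Values in every library are given for Cdk1, Ccnb1, Plk1, Aurka, Cdc20, Top2a, Mki67 and Foxm1, for the 2 largest changes in each direction per comparison, and for members whose call differs from most of their role. Of other genes, up to 4 of the largest called changes per direction and list at 24 h are named. Ndc80, Cenpe and Kif20a are given in full beyond this rule, chosen after their values were seen. Fold changes at different times share the 0 h libraries and were not correlated.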

Additional observations from a re-analysis of the deposited data

How the results depend on the processing

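In this paragraph the share of all tested genes called the same way in the same fit follows in brackets. Members higher against 0 h stayed within 1.5 times of the main count under every alternative run except when a log2 fold change above 0.58 was also required. That left 8, 21 and 14 higher at 2, 4 and 8 h (2.54%, 9.53% and 17.4%). That threshold also left 0 lower at 24 h against 0 h (20.7%) and 3 higher at 4 h against 2 h (2.88%). It left 0 higher and 0 lower at 8 h against 4 h (2.78% and 2.68%), and 5 higher and 1 lower at 24 h against 8 h (13.5% and 9.80%). Fitting only the 2 times compared gave 1, 1, 2 and 0 lower at 2, 4, 8 and 24 h against 0 h (21.0%, 28.1%, 32.3% and 24.3%). It gave 3 lower at 4 h against 2 h (20.1%), 3 higher at 8 h against 4 h (8.26%), and 0 higher and 1 lower at 24 h against 8 h (5.57% and 8.20%). DESeq2 gave 1, 1 and 3 lower at 2, 4 and 8 h against 0 h (13.7%, 22.6% and 27.7%). It gave 1 lower at 4 h against 2 h (15.6%), and 2 higher and 10 lower at 8 h against 4 h (8.19% and 9.81%). An adjusted p under 0.05 gave 1 lower at 4 h and 1 at 8 h against 0 h (24.1% and 29.4%). It gave 2 lower at 4 h against 2 h (18.4%), and 2 higher and 11 lower at 8 h against 4 h (10.5% and 11.98%). Library totals gave 0 lower at 24 h against 0 h (19.7%), and 3 higher and 0 lower at 8 h against 4 h (7.59% and 4.86%). They gave 26 higher and 1 lower at 24 h against 8 h (32.01% and 11.02%). Upper-quartile factors gave 0 lower at 24 h against 0 h (23.4%), and 2 higher and 1 lower at 8 h against 4 h (7.67% and 5.18%). At least 10 counts in every library gave 1 lower at 4 h against 2 h (17.5%).

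Leaving out 1 library at a time gave 22 to 35 higher and 0 lower at 2 h, 32 to 43 higher and 0 to 1 lower at 4 h, 29 to 39 higher and 0 to 1 lower at 8 h, and 34 to 40 higher and 0 to 1 lower at 24 h against 0 h. The steps were less stable, with 9 to 21 higher and 0 to 3 lower at 4 h against 2 h, 1 to 4 higher and 0 to 13 lower at 8 h against 4 h, and 10 to 24 higher and 2 to 7 lower at 24 h against 8 h. The highest counts of each step came without 24 h replicate 3. In that fit 16.5%, 11.6% and 21.1% of all genes were called higher at these steps, and 19.8%, 14.5% and 17.9% lower. By the deposited TPM the summed members were at 141.1% of 0 h at 4 h and 142.2% at 8 h.

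Directions turned for Ube2c, Cdc20, Plk1, Hmmr and Ccnb1. With library totals the log2 fold change at 24 h against 0 h was 0.041 for Ube2c, 0.18 for Cdc20, 0.13 for Plk1, 0.27 for Hmmr and 0.16 for Ccnb1. With upper-quartile factors it was 0.049 for Cdc20, 0.14 for Hmmr and 0.028 for Ccnb1, and 0.018 for Ube2c at 8 h. With at least 10 counts in every library it was 0.016 for Hmmr. Over the fits without 1 library it ranged −0.046 to 0.033 for Hmmr and −0.20 to 0.027 for Ccnb1, with the positive values in those without 24 h replicate 3. Ube2c at 24 h was at 108.3% of 0 h by TPM and 102.9% by library totals. The cause of these shifts was not tested.

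The replicate numbers paired the libraries weakly at most, and unevenly over the times. Of 30 same-numbered pairs 3 had a correlation of deviations over 0.1 (−0.312 to 0.211, median 0.025), and 9 of 15 libraries were closest to their own number. Those 3 pairs (0.211, 0.136 and 0.118) were between libraries at 2, 4 and 8 h. The lowest value was between replicate 3 at 8 h and at 24 h. The 60 other-numbered pairs gave −0.234 to 0.309. With the replicate number as a block, members lower at 24 h against 8 h were 3 rather than 6, where 15.7% of all tested genes were called lower. In that fit 12 of the 181 calls among 199 reported pairs of gene and comparison were lost, and other counts of members stayed within 1.5 times.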
